A study of Mus musculus with 6 samples.

Results

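Lipoprotein lipase (LPL) and 9 genes that act with it to move fatty acids from blood lipoproteins into fat cells were followed in the inguinal fat pad (iWAT, white adipose tissue that lies under the skin) of cold-acclimated mice. They are Lpl, Gpihbp1, Lmf1, Angptl4, Angptl8, Vldlr, Cd36, Slc27a1, Fabp4 and Fabp5. All 10 were found among the 16538 genes of the table, 9 under these symbols and Angptl8 under its older symbol Gm6484. The RNA-Seq comprised 3 control samples (fl/fl mice, which carry the floxed Nrg4 allele without Cre and whose genotype the labels give as wt) and 3 AKO samples (the same floxed allele with Adiponectin-Cre, which deletes Nrg4, a secreted factor of adipocytes, in adipocytes). Each sample was RNA pooled from 2 mice. All mice ate chow and were held at 8°C, for 10 days by the labels and for 12 days by the published text. Age and sex are not given in the sources used here. Because the whole depot was sequenced, cells that do not express Adiponectin-Cre, such as those of vessels, contributed RNA in both groups.

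LPL hydrolyzes the triglycerides of chylomicrons and very low-density lipoproteins at the capillary wall. Adipocytes make the enzyme, LMF1 helps it to fold in the endoplasmic reticulum, and GPIHBP1 carries it across the endothelial cell to the vessel lumen, while angiopoietin-like proteins inhibit it. The released fatty acids enter cells with the help of CD36 and of fatty acid transport proteins and are bound inside by fatty acid binding proteins. Brown and beige fat in the cold are known to draw heavily on this route for fuel.

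No difference between genotypes passed the threshold for any of the 10 genes, although 8 of the 10 had a lower mean in AKO iWAT. The test was limma on log2(normalized count + 1), adjusted over 13855 genes, and it called 2 genes in all (0.0144%), 1 of them lower in AKO samples (0.00722%). DESeq2 and edgeR on recovered reads called 0 of the 10 as well, against 0.998% and 0.0216% of all genes tested by each. At an unadjusted p under 0.05 limma found 1 of the 10, Lmf1, against 9.10% of all genes. Lmf1 was also the only one of the 10 whose groups did not overlap, which was so for 14.5% of all genes lower in AKO samples for 8.31% and higher for 6.14%. A negative fold change was found for 48.1% of all genes. The median log2 fold change of the 10 was -0.13, against 0.01 over all genes. With any 1 sample left out, limma again called 0 of the 10.

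The targeted gene, Nrg4, had 3108 ± 18.3 normalized counts in control and 2632 ± 57.3 in AKO samples (SD, n = 3 each), 84.7% of the control mean, with no overlap (limma log2 fold change -0.24, SE 0.05, adjusted p = 0.298). Its counts span the whole gene, and the deleted exons were not analysed separately. Opposite-strand genes (Fbxo22 and Gm15625) share 8.97% of the exonic bases of Nrg4. By qPCR, a different measure, the published text reports almost no Nrg4 mRNA in AKO iWAT. Ucp1, the uncoupling protein of thermogenic fat, had 20093 ± 4631 in control and 6013 ± 1575 in AKO samples (log2 fold change -1.75, SE 0.21, adjusted p = 0.0703 with limma and 1.97e-06 with DESeq2). Samples held 17570335 to 18373707 reads on the listed genes. All 10 adipocyte markers had counts in every sample, and their sum was 456510 to 489920 in control and 381130 to 456410 in AKO samples. Of these markers, 8 had negative and 2 had positive log2 fold changes (median -0.11), and limma and DESeq2 called 0. The 10 skeletal muscle markers had the widest fold range in control samples, from 139 to 20510, and over both groups together. In AKO samples their sum was 15104 to 89210. Control replicate 1 was lowest and AKO replicate 3 highest. The 10 beige markers summed to 32028 to 46365 in control and 14672 to 18117 in AKO samples, and limma called 1 of them and DESeq2 9. The sums of 10 endothelial markers (22802 to 25164 and 21009 to 23950), 10 macrophage markers (11861 to 16828 and 14662 to 20107) and 10 mammary epithelial markers (35.5 to 1311 and 193 to 1938, with 6 genes at 0 in some sample) overlapped between groups. All 10 macrophage markers had positive log2 fold changes (median 0.36, 4 with an unadjusted p under 0.05 with limma), as had all 10 mammary epithelial markers (median 1.04) and 8 of the 10 skeletal muscle markers (median 3.66), while 9 of the 10 endothelial markers had negative ones (median -0.07). DESeq2 and limma called 0 in each of these 4 lists. Their part in the results given here was not tested. In whole tissue, fewer cells of a type and less RNA per cell cannot be told apart.

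**Figure D1:**
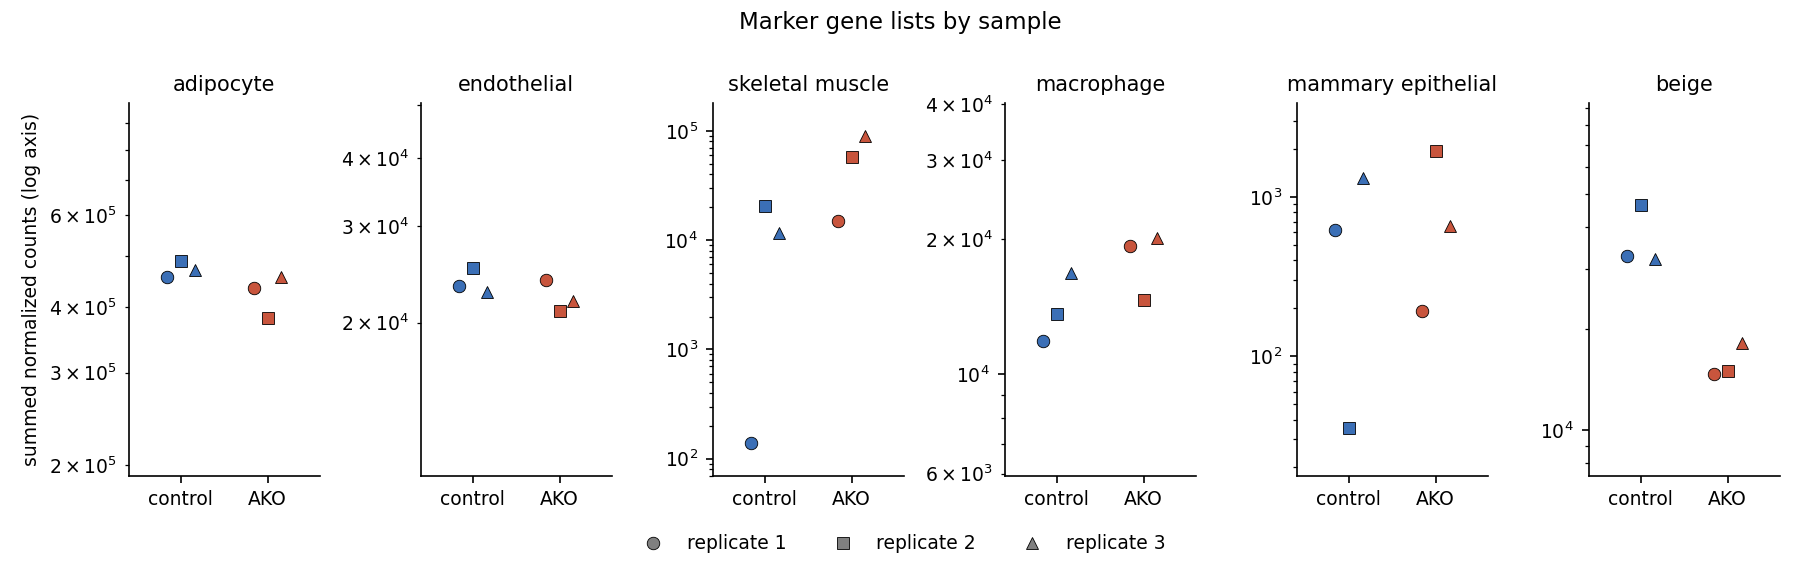
Summed normalized counts (log axes) of 10 marker genes for each of 6 lists in each control (blue) and AKO (red) sample, with the symbol giving the replicate number. The beige sums of the 2 groups do not overlap. The adipocyte sums come close to overlap, with 456510 or more in control and 456410 or less in AKO samples. The skeletal muscle sum of control replicate 1 (139) lies far below all others.

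Lpl was among the most abundant messages of the tissue. Control iWAT had 193689, 175934 and 186343 normalized counts of Lpl, and AKO iWAT had 184483, 151500 and 167945. AKO replicate 1 lay within the control range and the other two AKO samples below it, so the groups overlapped. The means were 185322 ± 8922 and 167976 ± 16491 (SD, n = 3 each). The log2 fold change was -0.15 (SE 0.13, 95% interval -0.45 to 0.16, limma adjusted p = 0.797). As a share of the control level, the interval ran from -26.6% to 11.4%. Lpl lies on the plus strand of chr8:68880491-68907448 (mm10, GENCODE M21 positions here and for all genes).

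Lmf1, the maturation factor of LPL, was lower in each AKO sample. Control samples had 657, 675 and 638 normalized counts and AKO samples had 542, 540 and 636. AKO replicate 3 fell just short of the lowest control sample, while the other AKO samples were about 100 counts lower. Means were 657 ± 18.5 and 573 ± 55.2 (SD, n = 3 each), a log2 fold change of -0.20 (SE 0.08, 95% interval -0.40 to -0.01, limma adjusted p = 0.539). Counting alone gives a Poisson error of 25.2 at the control mean, more than the SD between control samples, which therefore is too small a measure of error. The gene lies at chr17:25579085-25662826 on the plus strand.

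Gpihbp1, the endothelial carrier of LPL, showed no order by genotype. Its normalized counts were 1472, 1845 and 1734 in control and 1499, 1628 and 1807 in AKO samples. Replicate 1 was lowest in both groups and the ranges overlapped almost fully. Means of 1684 ± 192 and 1645 ± 154 (SD, n = 3 each) gave a log2 fold change of -0.03 (SE 0.10, 95% interval -0.27 to 0.21, limma adjusted p = 0.959). Its sign turned without control replicate 2 (0.04) or without AKO replicate 1 (0.03). The ratio of Gpihbp1 to Lpl within a sample, which no scaling between samples touches, was 0.00760, 0.0105 and 0.00931 in control and 0.00813, 0.0107 and 0.0108 in AKO samples. This log2 ratio was 0.11 higher in AKO samples, with p = 0.5 (2-sided exact permutation test, smallest possible p 0.1, adjusted p = 0.583 over 7 ratios). It turned to -0.01 without control replicate 1. Gpihbp1 lies at chr15:75596628-75599481 on the plus strand.

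**Figure D2:**
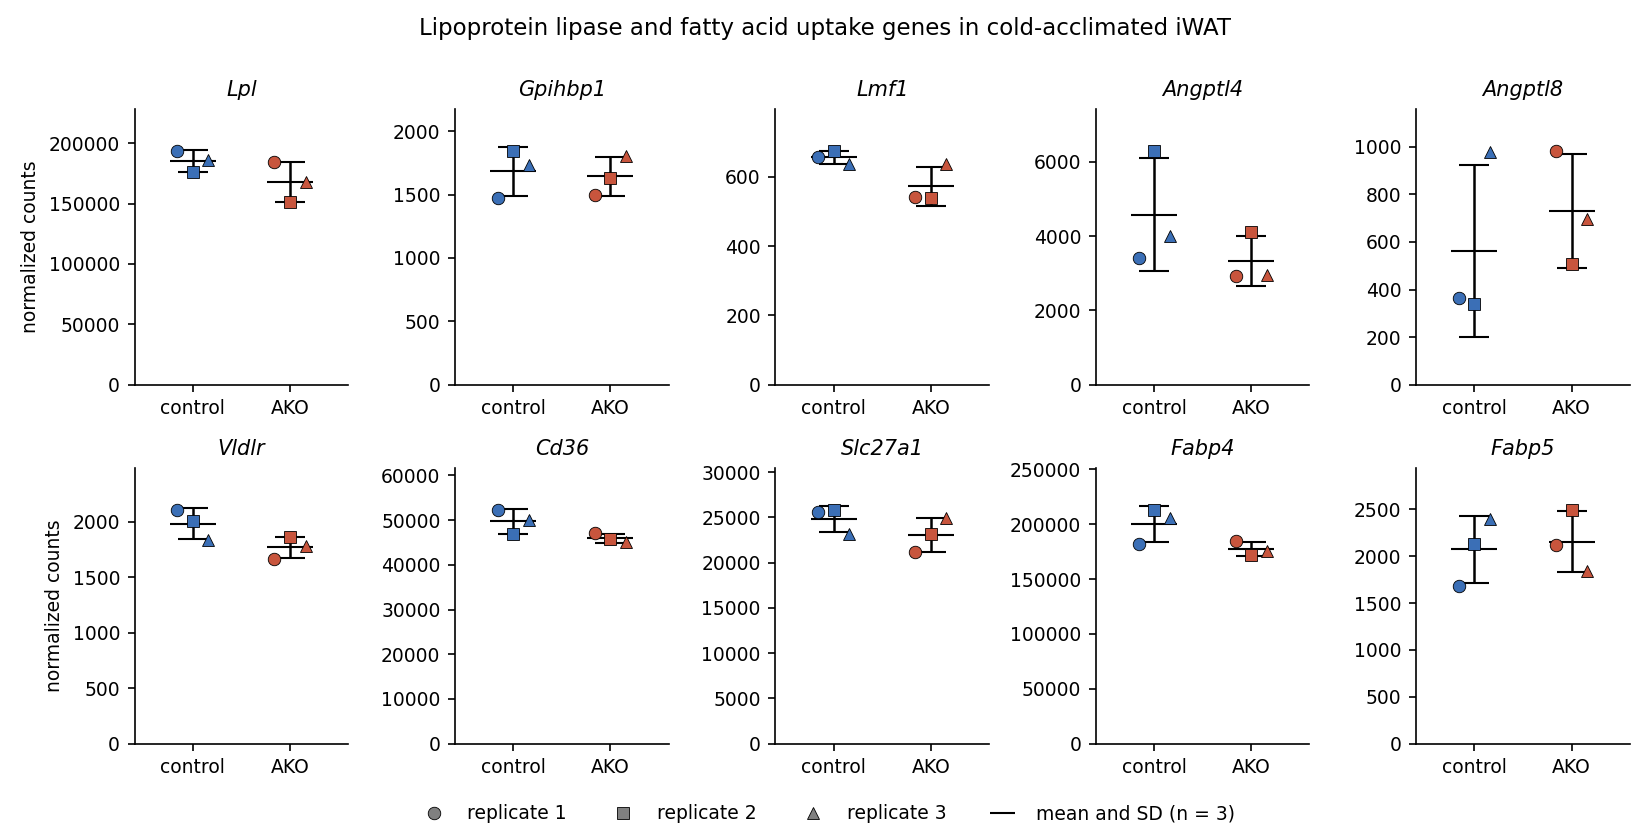
Normalized counts (linear axes from 0) of the 10 genes in each control (blue) and AKO (red) sample, with the symbol giving the replicate number and lines giving the mean and SD (n = 3). Lmf1 is the only gene whose groups do not overlap (638 or more in control, 636 or less in AKO samples), and Angptl4 and Angptl8 have the widest spread within the control group.

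The inhibitors of LPL were the most variable of the 10 genes. Angptl4, a secreted inhibitor that is induced by fasting and by fatty acids through PPAR receptors, had 3424, 6299.6 and 4000.1 normalized counts in control samples and 2935, 4119 and 2945 in AKO samples. Replicate 2 was the highest sample of each group, and AKO replicate 2 exceeded both other control samples and AKO replicates 1 and 3. Means were 4575 ± 1521 and 3333 ± 681 (SD, n = 3 each), a log2 fold change of -0.43 (SE 0.23, 95% interval -0.95 to 0.10, limma adjusted p = 0.623). Without control replicate 2 the log2 fold change was -0.17. DESeq2 with the replicate number as a block called Angptl4 lower (adjusted p = 0.00291), whereas limma with that block called 0 of the 10 genes. The replicate numbers were not found to pair the samples. The log2 ratio of Angptl4 to Lpl was 0.28 lower on average in AKO samples (AKO minus control -0.28, exact permutation p = 0.5, adjusted 0.583) and was 0.01 without control replicate 2. Angptl4 lies at chr17:33773750-33781830 on the minus strand.

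Angptl8, which is induced by insulin and feeding and forms complexes with other angiopoietin-like proteins, had 365, 341 and 978 normalized counts in control and 983, 508 and 695 in AKO samples. The highest control sample was 2.87-fold above the lowest, and the highest AKO sample 1.94-fold above the lowest. Control replicate 3 was near AKO replicate 1, and the other control samples were below every AKO sample. Means were 561 ± 361 and 729 ± 240 (SD, n = 3 each), a log2 fold change of 0.50 (SE 0.40, 95% interval -0.43 to 1.44, limma adjusted p = 0.771). This depended on control replicate 3: without it the log2 fold change was 0.99 with limma, not called, and 1.05 with DESeq2 (adjusted p = 0.00762). Over the other samples left out in turn, limma gave down to 0.23. The log2 ratio of Angptl8 to Lpl was 0.65 higher in AKO samples (exact permutation p = 0.3, adjusted 0.525). Angptl8 lies at chr9:21835510-21837347 on the plus strand.

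**Figure D3:**
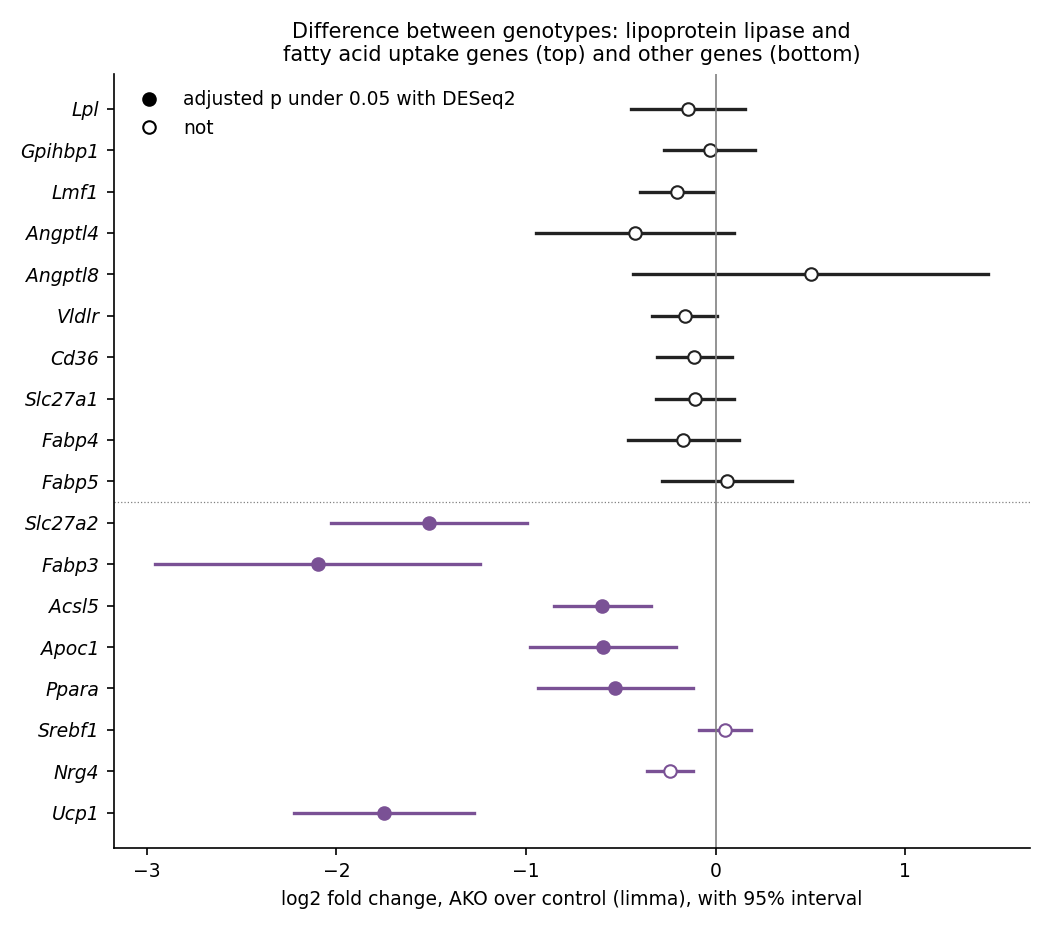
Log2 fold change (AKO over control, limma, n = 3 samples each) with its 95% interval for the 10 genes (black, top) and for 8 other genes (purple, bottom); filled points had an adjusted p under 0.05 with DESeq2. All 10 black points are open, Angptl8 has the widest of their intervals (-0.43 to 1.44), and Fabp3 (-2.10) and Slc27a2 (-1.51) lie far to the left.

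Vldlr, a receptor that binds triglyceride-rich lipoproteins, had 2104, 2005 and 1831 normalized counts in control and 1667, 1859 and 1776 in AKO samples. Only AKO replicate 2 reached into the control range, above control replicate 3. Means were 1980 ± 138 and 1767 ± 96.2 (SD, n = 3 each), a log2 fold change of -0.16 (SE 0.07, 95% interval -0.33 to 0.01, limma adjusted p = 0.564). The gene lies at chr19:27216484-27254231 on the plus strand.

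Among the uptake proteins of the cell surface, Cd36, which binds long-chain fatty acids, had 52280, 46799 and 50022 normalized counts in control and 47064, 45742 and 45082 in AKO samples. AKO replicate 1 lay just above control replicate 2, and all other AKO samples lay below the control range. Its log2 fold change was -0.11 (SE 0.08, 95% interval -0.31 to 0.08, limma adjusted p = 0.756). Slc27a1, which encodes fatty acid transport protein 1, had 25554, 25827 and 23181 normalized counts in control and 21204, 23150.2 and 24928 in AKO samples. AKO replicate 3 lay inside the control range, and the log2 fold change was -0.11 (SE 0.09, 95% interval -0.31 to 0.10, limma adjusted p = 0.777). The ratio of Slc27a1 to Cd36 ranged from 0.463 to 0.552 in control and from 0.451 to 0.553 in AKO samples. Its log2 value differed by 0.00 between the groups (exact permutation p = 0.9, adjusted 0.900), with a sign that turned when single samples were left out (-0.07 to 0.08). Cd36 lies at chr5:17781690-17888801 on the minus strand and Slc27a1 at chr8:71568882-71587302 on the plus strand.

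Fabp4, the fatty acid binding protein typical of adipocytes, had 182113, 212899 and 205342 normalized counts in control and 184467, 172056 and 175920 in AKO samples. Control replicate 1 was lower than AKO replicate 1, and the other control samples were higher than every AKO sample. Means were 200118 ± 16044 and 177481 ± 6351 (SD, n = 3 each), a log2 fold change of -0.17 (SE 0.13, 95% interval -0.46 to 0.12, adjusted p = 0.747 with limma and 0.570 with DESeq2). Without control replicate 1, DESeq2 called Fabp4 lower (log2 fold change -0.24, adjusted p = 0.0112), and limma did not. Fabp4 lies at chr3:10204088-10208576 on the minus strand.

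Fabp5, its close relative in adipocytes and macrophages, had 1685, 2130 and 2403 normalized counts in control and 2123, 2494 and 1843 in AKO samples. The groups overlapped over most of their range, and the log2 fold change was 0.06 (SE 0.15, 95% interval -0.28 to 0.40, limma adjusted p = 0.945). Without control replicate 1 it was -0.08, and without AKO replicate 2 it was -0.05. The macrophage marker sum was lowest in control replicate 1, the lowest sample for Fabp5 too, but highest in AKO replicate 3, the lowest AKO sample for Fabp5, and its part in these values was not tested. A stretch of 409 bases, 41.4% of its transcript, recurs at 95% identity or more in the gene Gm6166, so reads of Fabp5 are uncertain to that extent. The log2 ratio of Fabp5 to Fabp4 was 0.23 higher in AKO samples (exact permutation p = 0.3, adjusted 0.525). Fabp5 lies at chr3:10012548-10016607 on the plus strand.

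Per kilobase of the principal transcript, the control means of the 10 genes ran from 223346 normalized counts for Fabp4 through 45036 for Lpl, 14622 for Cd36 and 8892 for Slc27a1 to 2100.1 for Fabp5, 2041 for Gpihbp1, 1383 for Angptl4, 649 for Angptl8, 354 for Lmf1 and 248 for Vldlr. Over all 6 samples, the ranges of the 4 highest did not touch each other or those of the rest. Fabp5 overlapped Gpihbp1, Gpihbp1 overlapped Angptl4, and Angptl4 overlapped Angptl8, so the order within each of these pairs of neighbors is not beyond their spread. Lmf1 stayed below Angptl8 and above Vldlr in every sample. Together the 10 genes took 2.51% to 2.62% of the reads on listed genes in control and 2.30% to 2.53% in AKO samples. AKO replicate 1, with 2.53%, was within the control range.

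Over the 6 samples, the genes whose log2 counts followed Lpl most closely, among 10302 genes with a mean of at least 100, were Cd59a (r = 0.993), Ppp1r9b (r = 0.991), Scmh1 (r = 0.984), Chst15 (r = 0.983) and Serinc1 (r = 0.978). For each of them AKO replicate 2 was the lowest sample and control replicate 1 the highest, as for Lpl. Of the other genes of the LPL route, Cd36 was closest (r = 0.786) and Fabp5 had the lowest value (r = -0.49). These r values are descriptions over 6 samples that share the genotype difference and the scaling of each library.

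The wider route was read from 73 genes in 9 groups, from LPL folding and lipoprotein receptors to acyl-CoA synthetases, caveolae and transcriptional regulators. Of these, 69 had a row and 60 were tested, and limma called 0 of the 60. With limma, 7 had an unadjusted p under 0.05, 6 of them lower in AKO samples. Over all 13855 genes tested, 1261 (9.10%) had such a p, 650 of them lower. On recovered reads, edgeR also called 0. DESeq2 called 5 of 62, all lower in AKO samples, where it called 0.757% of all genes lower. These were Slc27a2, Fabp3, Acsl5, Apoc1 and Ppara, the last of which is named after its values were seen. With a sample left out, DESeq2 called 3 without control replicate 1, 2 without control replicate 2, 3 without AKO replicate 2 or 3 and 4 in each of the remaining fits. The median log2 fold change of the 60 genes was -0.06, with 41 negative and 19 positive values. Over all genes tested, 6662 of 13855 values (48.1%) were negative. Lipoprotein receptors had 6 positive values of 8, and the caveolar and CD36-associated group had 6 negative of 8. The 10 genes of LPL folding, processing and binding ranged from -0.13 to 0.20. Apoc2, which encodes the cofactor that LPL needs, had 0 to 4 reads in each sample and was not tested.

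Fabp3 and Slc27a2, carriers of lower abundance, had larger fold changes than Fabp4 and Slc27a1, whereas those of Slc27a3 (-0.01) and Slc27a4 (-0.06) were smaller. Fabp3, the heart-type fatty acid binding protein that is also found in muscle and in brown fat, had 559, 566 and 432 normalized counts in control and 151, 60.5 and 186 in AKO samples. The highest AKO sample was far below the lowest control sample. The gene lies at chr4:130308595-130315463. Means were 519 ± 75.3 and 132 ± 64.7 (SD, n = 3 each), 3.92-fold higher in control, with a log2 fold change of -2.10 (SE 0.37, 95% interval -2.95 to -1.24, adjusted p = 0.205 with limma and 0.00485 with DESeq2). DESeq2 did not call it without control replicate 2 (adjusted p = 0.159) and gave no adjusted p without control replicate 1. The 10 skeletal muscle markers summed to 139, 20510 and 11599 in control samples and to 15104, 57808 and 89210 in AKO samples. The part of muscle RNA in the Fabp3 counts was not tested. Exons of opposite-strand genes cover 19.6% of the exonic bases of Fabp3, and 402 bases recur in Fabp3-ps1. The log2 ratio of Fabp3 to Fabp4 was lower in AKO samples (AKO minus control -1.94, exact permutation p = 0.1, the smallest possible, adjusted 0.350) with no overlap.

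Slc27a2, a fatty acid transport protein that is also a very-long-chain acyl-CoA synthetase, had 350.2, 491 and 270.4 normalized counts in control and 103, 147 and 130.2 in AKO samples. The highest AKO sample was well below the lowest control sample. The gene lies at chr2:126552407-126588243. Means were 371 ± 112 and 127 ± 22.5 (SD, n = 3 each), 2.92-fold higher in control, with a log2 fold change of -1.51 (SE 0.22, 95% interval -2.03 to -0.997, adjusted p = 0.130 with limma and 1.5e-08 with DESeq2). DESeq2 called it in 5 of the 6 fits with a sample left out and gave no adjusted p without control replicate 1. The gene is also on the beige marker list, whose sum was lower in every AKO sample, and 11.2% of its exonic bases are shared with the opposite-strand gene Gm26697. The log2 ratio of Slc27a2 to Slc27a1 differed by -1.41 (exact permutation p = 0.1, adjusted 0.350, a comparison chosen after seeing the data).

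**Figure D4:**
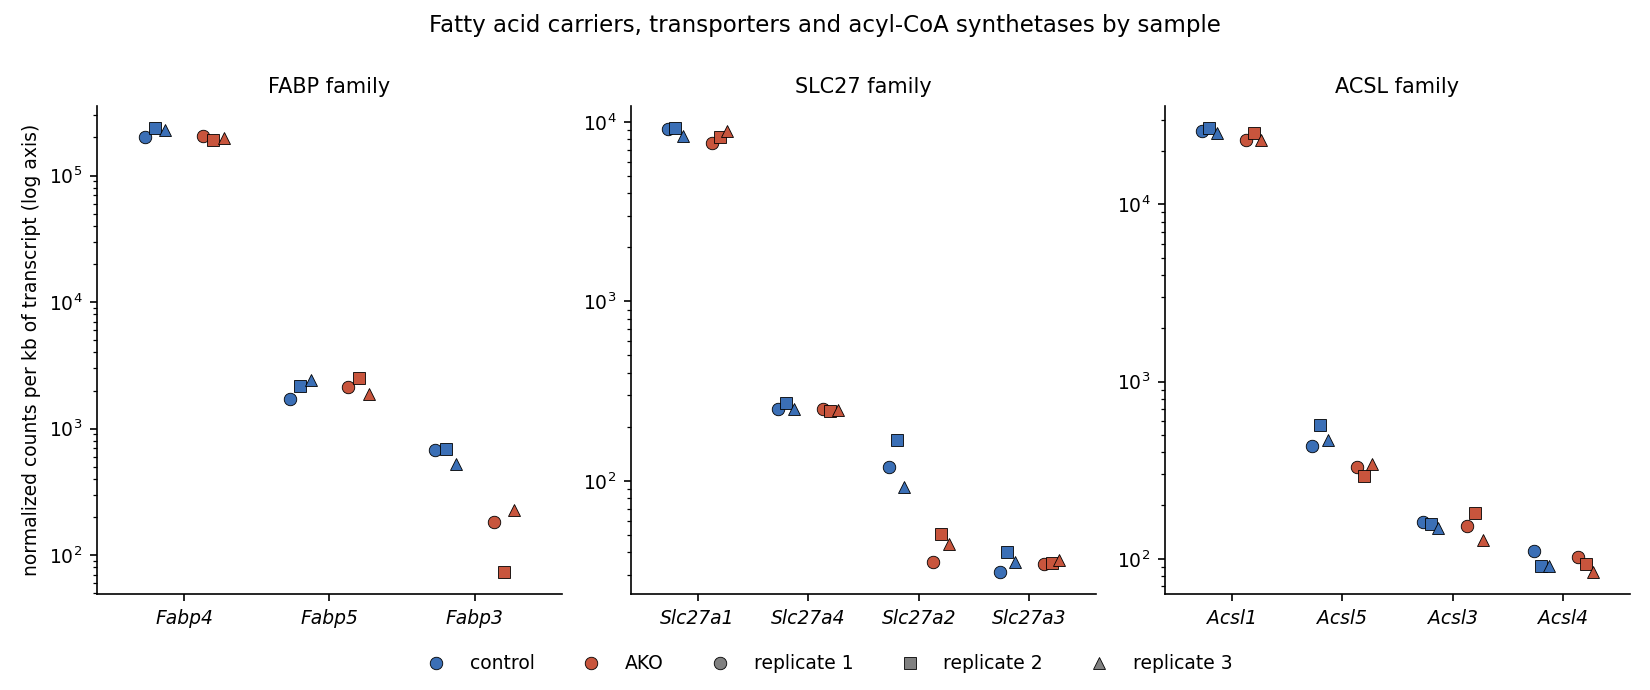
Normalized counts per kilobase of principal transcript (log axes) in each control (blue) and AKO (red) sample for members of the fatty acid binding protein, fatty acid transport protein and acyl-CoA synthetase families. In each family the most abundant member (Fabp4, Slc27a1, Acsl1) overlaps between genotypes, whereas Fabp3, Slc27a2 and Acsl5 do not. Slc27a4 does not overlap either, at a log2 fold change of -0.06. Of all genes tested, 14.5% do not overlap.

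Acsl5, an acyl-CoA synthetase, had 1833, 2413 and 1974 normalized counts in control and 1392, 1243 and 1459.6 in AKO samples, with no overlap. Its log2 fold change was -0.60 (SE 0.11, adjusted p = 0.227 with limma and 0.000146 with DESeq2, which called it with any sample left out), and 8.31% of its exonic bases are shared with the opposite-strand gene Zdhhc6. Acsl1, the abundant synthetase of adipocytes, had means of 101654 ± 3420.4 and 92996 ± 5151 (SD, n = 3 each), with overlap (limma log2 fold change -0.13, adjusted p = 0.763). Apoc1, an apolipoprotein that inhibits LPL, had 1514, 2259 and 1953 normalized counts in control and 1479.8, 1045 and 1251 in AKO samples. AKO replicate 1 lay just below control replicate 1, and the log2 fold change was -0.60 (SE 0.17, adjusted p = 0.387 with limma and 0.0133 with DESeq2). DESeq2 called Apoc1 only without control replicate 1 (0.000402) or AKO replicate 1 (0.00490) when samples were left out in turn, and reached an adjusted p of 0.477 without control replicate 2. Ppara, a nuclear receptor for fatty acids, had 1801, 2029 and 1228 normalized counts in control and 1297, 1064 and 1083 in AKO samples. These overlapped at control replicate 3, and the log2 fold change was -0.53 (SE 0.18, adjusted p = 0.484 with limma and 0.0474 with DESeq2). DESeq2 called it, when samples were left out in turn, only without control replicate 3 (adjusted p = 7.71e-06). Srebf1, a regulator of lipid synthesis, was the only tested gene of the list with all AKO samples above the control range, with 13405 ± 64.0 and 13867 ± 230.4 normalized counts (SD, n = 3 each) and a log2 fold change of 0.05 (limma adjusted p = 0.866).

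The sequences before the start sites of the carriers with the largest differences, Slc27a2 and Fabp3, are shown beside those of Cd36 and Angptl8, which were not called. RefSeq entries of GRCm38.p6 were matched for 5 of the 10 genes (Angptl8, Lmf1, Vldlr, Cd36 and Slc27a1). The 250 bases are at chr2:126552774-126553023 (plus strand) for Slc27a2, chr4:130308488-130308737 (plus strand) for Fabp3, chr5:17835897-17836146 (minus strand) for Cd36 and chr9:21835260-21835509 (plus strand) for Angptl8. Each is written 5′ to 3′ up to the base before the start site. Capitals mark the nuclear receptor half-site AGGTCA, the binding unit of receptors such as the PPARs, and the CCAAT box, each searched on both strands.
Slc27a2: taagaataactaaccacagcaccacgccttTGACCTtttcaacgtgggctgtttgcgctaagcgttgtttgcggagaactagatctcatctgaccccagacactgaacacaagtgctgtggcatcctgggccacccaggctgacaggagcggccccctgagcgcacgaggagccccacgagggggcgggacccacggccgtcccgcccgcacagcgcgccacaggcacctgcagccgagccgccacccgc
Fabp3: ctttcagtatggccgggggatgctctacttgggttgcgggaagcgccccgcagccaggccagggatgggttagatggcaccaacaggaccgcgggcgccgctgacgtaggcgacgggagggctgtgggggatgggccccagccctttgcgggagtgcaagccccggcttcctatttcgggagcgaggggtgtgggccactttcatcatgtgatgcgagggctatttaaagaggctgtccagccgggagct
Cd36: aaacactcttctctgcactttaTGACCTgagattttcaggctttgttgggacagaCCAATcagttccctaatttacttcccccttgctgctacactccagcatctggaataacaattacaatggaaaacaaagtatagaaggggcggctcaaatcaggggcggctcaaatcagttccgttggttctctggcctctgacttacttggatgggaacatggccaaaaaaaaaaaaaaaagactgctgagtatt
Angptl8: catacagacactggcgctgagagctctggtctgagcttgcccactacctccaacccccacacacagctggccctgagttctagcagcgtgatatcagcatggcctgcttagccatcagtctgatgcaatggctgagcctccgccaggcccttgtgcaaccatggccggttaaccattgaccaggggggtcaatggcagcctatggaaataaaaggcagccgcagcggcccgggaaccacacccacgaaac
The Slc27a2 window held 1 half-site, on the strand opposite to the printed one, at position -220 from the start site. The Cd36 window held 1 half-site, also on the strand opposite to the printed one, at position -228 and a CCAAT box at position -195. The start sites used lay 52905 bases (Cd36), 617 bases (Slc27a2), 143 bases (Fabp3) and 0 bases (Angptl8) from the gene starts of GENCODE M21. The windows of Fabp3 and Angptl8 held neither, and none of the 4 held TATAAA or a direct repeat of the half-site with 1 base between the copies. Of 32851 promoter entries, 14.0% held the half-site, 33.9% CCAAT, 12.4% TATAAA and 0.0330% the direct repeat. These matches are descriptions of letters and not of bound sites.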

How the data were processed

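RNA-Seq measured total RNA of iWAT in 3 control and 3 AKO samples, with genotypes taken from the labels. Alignment by the authors used STAR on mm10, and gene counts came from featureCounts and were scaled with DESeq2. They deposited a signal per gene and sample, the count divided by a size factor, with no division by gene length. The authors also deposited log2 fold changes and p-values of their own, which were not used. Whether counting used strand is not given in the sources used here.

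Within each sample, values were whole multiples of the value of a single read (0.960 to 1.08), and division by it gave whole reads for 100% of the values (tolerance 0.01). Reads on listed genes numbered 17570335 to 18373707 per sample, so counting error weighs most on genes with few reads. No sample was a repeat of another: between samples of a group, chi-square over degrees of freedom was 9.86 to 20.1. Each sample pooled 2 mice, and p-values measure the spread between such pools.

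Genotype was tested with limma (3.58.1, R 4.3.3, trend in the variance) on log2(value + 1) over 13855 genes (mean value 10 or more), at a Benjamini-Hochberg adjusted p under 0.05. The added 1 makes fold changes of low genes too small. Recovered reads were tested with DESeq2 (1.42.0), the tool of the study, and edgeR (4.0.16, quasi-likelihood test). Ratios of 2 genes within a sample were compared with 2-sided exact permutation tests of 3 against 3 samples and adjusted over the 7 ratios. The limma, edgeR and DESeq2 fits were tested on simulated data.

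The members and gene lists were chosen with earlier results of these data known. Named from the wider list were genes called by limma and the 4 largest falls and rises among genes whose groups did not overlap (on the higher side only Srebf1), beside Nrg4, Ucp1 and the 5 genes most like Lpl. Ppara, Acsl1, Acsl6, Apoc2 and Apoe were named after their values were seen. Positions and lengths are from GENCODE M21. Replicate numbers were not taken to pair samples: deviations from the group means correlated by 0.14, -0.35 and 0.24 between samples of the same number. Alternatives were other pseudocounts and filters, TMM and RLE factors, the other tools, the replicate number as a block, an adjusted p under 0.1 and leaving out each sample. DESeq2 with the block, DESeq2 with samples left out and the Slc27a2 to Slc27a1 ratio were added after seeing the data.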

Additional observations from a re-analysis of the deposited data

How the results depend on the processing

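The count of genes called by limma was 2 in all, 0 of the 10 genes of the LPL route and 0 of the wider list. Over all genes it was 6 with at least 10 in every sample, 11 at an adjusted p under 0.1, 5 for edgeR with RLE factors, 149 for DESeq2 and 193 for DESeq2 with the replicate block, and with a sample left out it ranged from 0 to 167 over limma (0 to 3) and DESeq2 (80 to 167). Of the 10 genes, DESeq2 with the replicate block called 1 (Angptl4), and with a sample left out the count was 0 to 1. Of the wider list, DESeq2 called 5, with the replicate block 4, and with a sample left out limma and DESeq2 together gave 0 to 4. With limma, the replicate block left all 3 counts at 2, 0 and 0. Not every sample correlated best with its own number. With a sample left out, the log2 differences ranged from -0.013 to 0.25 for Gpihbp1 to Lpl, from -0.51 to 0.012 for Angptl4 to Lpl, from -0.066 to 0.081 for Slc27a1 to Cd36, from -0.13 to 0.039 for Gpihbp1 and from -0.082 to 0.18 for Fabp5. The cause of these shifts was not tested. No other result among the 10 genes changed sign under the alternatives run. With 3 samples a group, the 95% intervals of 9 of the 10 genes, Lmf1 being the exception, held both lower and higher values in AKO samples.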

Other observations

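Acsl6, an acyl-CoA synthetase known from brain and muscle, was the gene of the wider list with the largest positive fold change and was chosen after its values were seen. It had 1.004, 6.45 and 4.07 normalized counts in control and 4.80, 21.5 and 25.1 in AKO samples (log2 fold change 1.83, SE 0.75, limma adjusted p = 0.534), and AKO replicates 2 and 3, its highest samples, also had the highest skeletal muscle marker sums (57808 and 89210). The part of muscle RNA in this was not tested. Among the apolipoproteins of the list, Apoc2 had 1.004, 2.15 and 1.02 normalized counts in control and 3.84, 0 and 0 in AKO samples, and Apoe had 32504 and 31207 on average (limma adjusted p = 0.927).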
